A study of Mus musculus with 2 samples.

Results

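The genes described here encode the machinery with which the retinal pigment epithelium (RPE) takes up shed photoreceptor outer segments. There are 10 of them, chosen by name for their role, though with earlier results of these data known. The TAM receptors are Mertk, Axl and Tyro3, with their ligands Gas6 and Pros1. The integrin subunits are Itgav and Itgb5, with their ligand Mfge8. The others are the scavenger receptor Cd36 and the motor protein Myo7a. Together the members are 10 of 23420 gene rows in the deposited count table. All 10 were among the 15796 genes with enough counts to test. RNA came from RPE-choroid, the pigmented layer behind the retina together with the vascular coat beneath it, of untreated mice aged 11 to 13 months, with the tissue of 2 eyes pooled in each polyA-enriched library. A group of 3 animals was labelled AhR -/- (strain B6.129-AhRtm1Bra/J), a germline targeted allele of the aryl hydrocarbon receptor (AhR), a transcription factor switched on by small molecules. The other group of 3 animals was labelled AhR +/+ (strain C57BL6/J). The labels do not state that the groups were littermates, so the targeted allele and other strain differences cannot be told apart.

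Photoreceptors renew their outer segments throughout life, and the RPE engulfs the shed tips each day. The integrin of alpha V and beta 5 subunits binds the tips through MFG-E8, a bridging protein that recognises exposed phosphatidylserine, and MERTK, activated by GAS6 or protein S, then drives their internalisation. CD36 is a receptor for oxidised lipids that affects the rate of internalisation, and myosin VIIa moves phagosomes and melanosomes within the RPE cell. Loss of Mertk in rodents causes retinal degeneration. Several of these genes are also active outside the RPE, AXL and GAS6 in vessel walls and macrophages, and CD36 in capillaries, fat cells and macrophages. In a bulk sample fewer cells of a type and less RNA per cell cannot be told apart.

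The libraries held from 18058725 to 28692624 reads counted in genes. All 18 RPE markers examined were detected, with a summed level of 31672 to 42874 CPM (read counts scaled to a common library size) in wild-type and 23610 to 40493 CPM in knockout-labelled libraries, so the labelled tissue was present. Transcripts of other sources were present too: photoreceptor markers summed to 9607 to 20694 CPM in wild-type and 13578 to 15401 CPM in knockout-labelled libraries although the retina had been removed, and all 10 were detected. Markers of cornea and conjunctiva epithelium, all 10 detected, summed to 6309, 2646 and 3041 CPM in wild-type animals 1 to 3 and to 3648, 15322 and 11967 CPM in knockout-labelled animals 1 to 3. Ahr itself had 19.7, 20.2 and 26.0 CPM in the wild type (animals 1 to 3) and 41.4, 45.4 and 40.6 CPM in the knockout-labelled group (animals 1 to 3). A count over the whole gene does not show whether the targeted part is missing, and its direction goes against a loss of transcript. For that reason the group is named knockout-labelled, and the directions given rest on the labels.

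The AhR complex binds DNA at sites that share the core GCGTG, and the RefSeq promoter windows of the members (GRCm38.p6, 250 bases before to 50 after each start) were searched for it on both strands. All 10 genes had a window, with Myo7a having a pair of them. The core was found in 5 of 11 windows (45.5%), those of Mertk, Tyro3, Itgb5, Mfge8 and 1 of Myo7a, against 32.4% of all 32851 windows. The longer form TNGCGTG, which contains the core, was found in 0 of 11 windows and in 5.07% of all windows. A match of this kind describes letters and is not evidence of binding, which was not measured. The windows of Mertk, the receptor with the widest spread over the libraries, and of Itgb5, the 1 member with an unadjusted p under 0.05 between the genotypes, are printed from 5′ to 3′ on the strand of the gene, with the core in capitals on whichever strand it lies (CACGC where it lies on the other strand). The Mertk window is chr2:128698665-128698964 and the Itgb5 window is chr16:33829415-33829714, both on the plus strand.
Mertk: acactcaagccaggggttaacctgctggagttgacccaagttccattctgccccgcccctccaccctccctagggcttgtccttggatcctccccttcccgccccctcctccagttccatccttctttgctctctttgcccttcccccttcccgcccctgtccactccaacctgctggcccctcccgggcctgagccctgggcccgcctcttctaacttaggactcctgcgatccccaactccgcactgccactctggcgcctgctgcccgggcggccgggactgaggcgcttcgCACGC
Itgb5: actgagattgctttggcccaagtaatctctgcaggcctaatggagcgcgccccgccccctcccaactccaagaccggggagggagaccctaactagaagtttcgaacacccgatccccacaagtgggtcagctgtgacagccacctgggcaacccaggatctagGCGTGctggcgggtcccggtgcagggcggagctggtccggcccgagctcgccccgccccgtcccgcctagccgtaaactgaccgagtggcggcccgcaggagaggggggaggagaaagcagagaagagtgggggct

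All members were well expressed, with a mean level above the median of all genes tested (23.4 CPM) in each case. Compared per kilobase of annotated exon, Gas6 stood highest, at 194 ± 25.6 CPM per kb (SD over all 6 libraries), and its lowest library lay above the highest of every other member. Then came Itgb5 (69.8 ± 13.9 CPM per kb), Mfge8 (64.0 ± 10.7), Axl (55.4 ± 5.09) and Itgav (46.0 ± 7.99). Cd36 (30.7 ± 3.69 CPM per kb), Pros1 (27.4 ± 2.18), Myo7a (23.5 ± 4.10) and Mertk (18.5 ± 4.55) were lower, and Tyro3 (8.64 ± 1.54) was lowest, with no overlap with Mertk. Between the top and the bottom of this order the ranges of all neighbouring members overlapped. Itgb5 lay above Mfge8 in 3 of 6 libraries and Mfge8 above Axl in 4 of 6, so the place of Mfge8 among these 3 is not resolved. Itgb5 lay above Axl in each library, though narrowly in knockout-labelled animal 3 (50.1 against 49.7 CPM per kb). Mertk lay below Axl and Myo7a and above Tyro3 in each library.

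**Figure D1:**
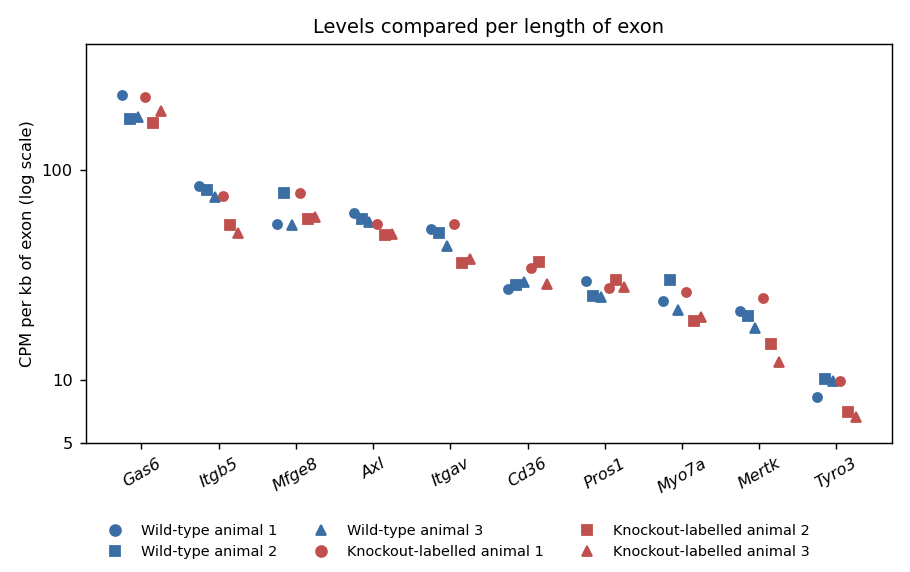
Level of each member in CPM per kilobase of annotated exon (vertical axis, log scale), 1 point per library, members ordered by their mean over the 6 libraries. Gas6 lies apart at the top (169 to 228 CPM per kb) and Tyro3 apart at the bottom (6.63 to 10.1 CPM per kb), and the ranges of neighbouring members between them overlap.

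Between the genotypes 0 of 10 members differed at the threshold used (p under 0.05 after Benjamini-Hochberg adjustment over all genes tested, in edgeR's quasi-likelihood test), where 0.0506% of all genes were called. The adjusted p of the members ran from 0.342 to 0.991. Their log2 fold changes, knockout-labelled over wild type, ran from -0.40 (Itgb5) to 0.23 (Cd36), with 6 below 0, as for 48.8% of all genes, and 4 above. Their median was -0.19, against 0.01 over all genes. The 95% interval of every member lay within a 2-fold change in either direction, as it did for 65.9% of all genes, so that over the 6 libraries the lowest bound was a fold of 0.580 and the highest 1.42. At an unadjusted p under 0.05 stood 1 of 10 members, Itgb5, where 14.2% of all genes did and 6.62% did so in its direction, lower in the knockout-labelled group. The groups did not overlap for 1 member, Axl, and for 20.0% of all genes. DESeq2 and the edgeR exact test called 0 members as well, where they called 3.00% and 2.23% of all genes. By the authors' deposited table, none of the members, 0 of 10, stands at an FDR under 0.05, where 2.37% of its genes do, and the lowest FDR among them is 0.484, that of Itgb5.

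**Figure D2:**
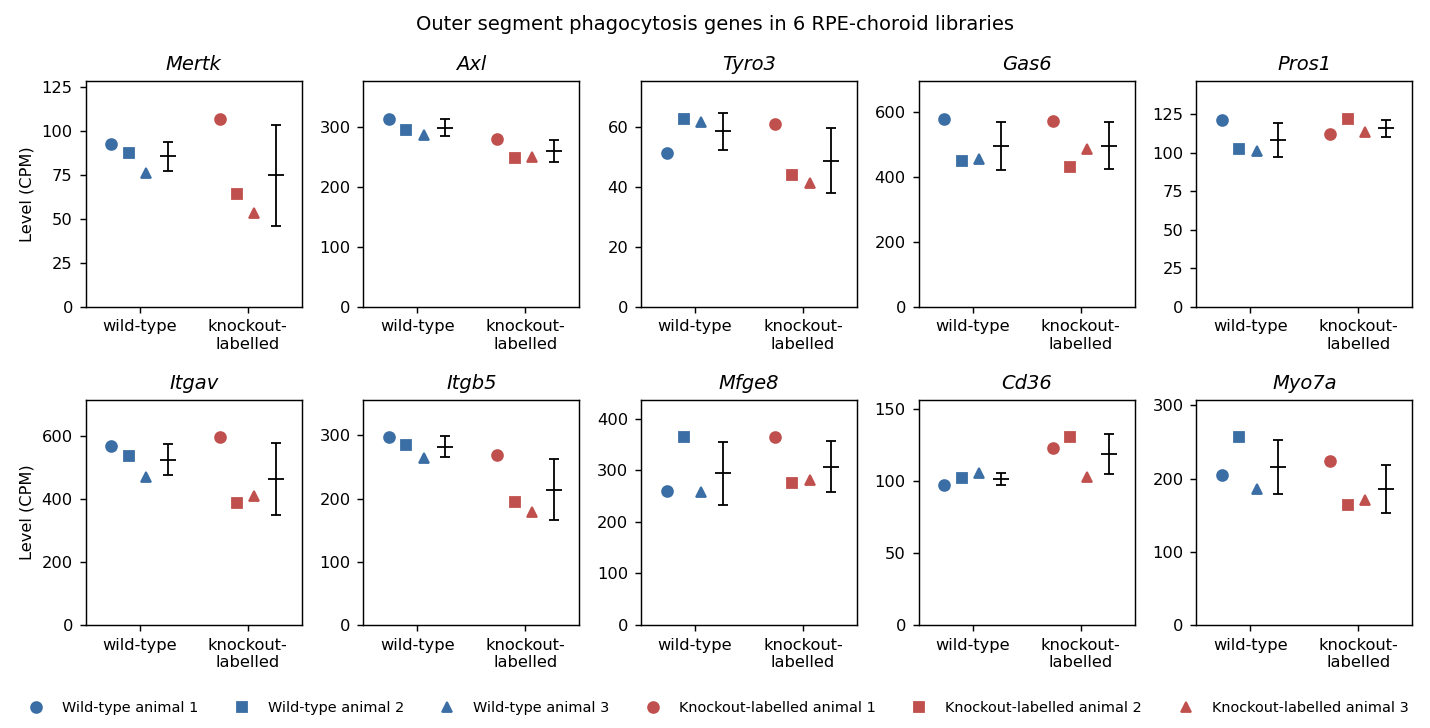
Level of each member in CPM (vertical axis from 0) in the 3 wild-type and 3 knockout-labelled libraries, 1 point per animal, with the group mean and SD as a bar beside the points. Knockout-labelled animals 2 and 3 lie below the wild type for Mertk, Itgav, Itgb5, Axl, Tyro3 and Myo7a, while animal 1 lies within or above the wild-type range for all of these but Axl.

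Among the receptors, Mertk had 92.6, 87.5 and 76.3 CPM in the wild type (animals 1 to 3) and 107, 64.0 and 53.0 CPM in the knockout-labelled group (animals 1 to 3). The knockout-labelled group held both its highest and its lowest library, and the groups overlapped. The means were 85.5 ± 8.35 and 74.7 ± 28.6 CPM (SD, n = 3 each), and the log2 fold change was -0.19 (SE 0.23, 95% interval -0.72 to 0.33, edgeR adjusted p = 0.758). Axl, a receptor that shares GAS6 with MERTK, stood at 314, 295 and 286 CPM in the wild type and at 280, 248 and 250 CPM in the knockout-labelled animals. Every knockout-labelled library lay below every wild-type library, but the gap between the nearest of them was small and the log2 fold change was -0.20 (SE 0.13, 95% interval -0.49 to 0.09, edgeR adjusted p = 0.513). Tyro3, the third receptor of the family, stood at 51.2, 62.7 and 61.4 CPM in the wild type and at 61.0, 43.8 and 41.1 CPM in the knockout-labelled animals. Animal 1 lay among the wild-type libraries and animals 2 and 3 below them (log2 fold change -0.26, SE 0.17, edgeR adjusted p = 0.523). Per kilobase, Axl made up 67.0% ± 1.00 of the summed TAM receptor transcripts in the wild type and 67.8% ± 5.54 in the knockout-labelled group (SD, n = 3 each), and Mertk 22.3% ± 1.26 and 22.0% ± 4.89.

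Of the TAM ligands, Gas6 had the log2 fold change nearest to 0 of all members over the 6 libraries, though 0.18 with the GC trend removed. It stood at 580, 448 and 455 CPM in the wild type (animals 1 to 3) and at 573, 430 and 487 CPM in the knockout-labelled group (animals 1 to 3), with animal 1 the highest library of each group. Its means were 494 ± 74.4 and 497 ± 71.6 CPM (SD, n = 3 each), and the log2 fold change was 0.01 (95% interval -0.37 to 0.38). Pros1, which encodes protein S, a blood anticoagulant that also activates TAM receptors, stood at 121, 102 and 101 CPM and at 112, 122 and 113 CPM in the same order (log2 fold change 0.10, 95% interval -0.17 to 0.37, edgeR adjusted p = 0.769). Its spread over the 6 libraries, 1.21-fold from lowest to highest, was the smallest among the members. Gas6 exceeded Pros1 per kilobase by a factor of 7.30 ± 0.34 in the wild type and 6.92 ± 1.27 in the knockout-labelled group (SD, n = 3 each).

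The integrin beta subunit had the largest log2 fold change of the members in size over all 6 libraries, but not once each library's trend on GC content was removed. It then stood at -0.22 (95% interval -0.54 to 0.10, edgeR adjusted p = 0.587), against -0.28 for Itgav, 0.23 for Mfge8 and -0.23 for Mertk. Itgb5, which pairs with alpha V to form the tethering receptor of the RPE, stood at 297, 285 and 264 CPM in the wild type (animals 1 to 3) and at 269, 195 and 178 CPM in the knockout-labelled group (animals 1 to 3). Animals 2 and 3 lay below all wild-type libraries and animal 1 lay just above the lowest of them. The means were 282 ± 17.0 and 214 ± 48.3 CPM (SD, n = 3 each). The log2 fold change was -0.40 (SE 0.17, 95% interval -0.79 to -0.01), which did not pass in edgeR's test (adjusted p = 0.342). Itgav, the alpha V subunit, which pairs with several beta subunits in many cell types, stood at 567, 537 and 469 CPM in the wild type and at 596, 388 and 408 CPM in the knockout-labelled animals, so that animal 1 was the highest of all libraries (log2 fold change -0.18, SE 0.19, edgeR adjusted p = 0.720). Mfge8 stood at 260, 364 and 257 CPM in the wild type and at 364, 276 and 282 CPM in the knockout-labelled animals, with 1 high library in each group (log2 fold change 0.06, SE 0.18, edgeR adjusted p = 0.911).

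Within each library the alpha subunit was the less abundant per kilobase of annotated exon (10.74 kb for Itgav, 3.55 kb for Itgb5). By CPM alone it was the higher (means 494 and 248 CPM), so this order rests on the lengths used. The ratio of Itgav to Itgb5 per kilobase separated the groups. It was 0.630, 0.622 and 0.588 in wild-type animals 1 to 3 and 0.732, 0.657 and 0.757 in knockout-labelled animals 1 to 3. An exact two-sided permutation test gave p = 0.10, the smallest that 3 against 3 allows, and adjusted over the 5 ratios compared it was 0.50. The ratios were chosen after the data were seen, and neither p-value covers that choice. The other 4 ratios, the 3 receptor shares and Gas6 to Pros1, had exact permutation p of 0.70 to 0.90 (adjusted 0.90 each). The transcripts of Itgav and Itgb5 differ in GC content, 43.5% and 57.0%. Once each library's trend on GC content was removed the ratio was 0.688, 0.722 and 0.637 in the wild type and 0.771, 0.517 and 0.665 in the knockout-labelled group, and the groups overlapped (exact permutation p = 0.80).

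Cd36 was the member with the highest log2 fold change over all 6 libraries, but not with the GC trend removed, where Mfge8 was (0.23). It stood at 97.6, 102 and 105 CPM in the wild type (animals 1 to 3) and at 123, 131 and 103 CPM in the knockout-labelled group (animals 1 to 3). Animals 1 and 2 lay above the wild type and animal 3 within it (means 102 ± 3.95 and 119 ± 14.1 CPM, SD, n = 3 each; log2 fold change 0.23, SE 0.12, 95% interval -0.05 to 0.51, edgeR adjusted p = 0.446). It also has the lowest transcript GC content of the members, 38.4%, and with the GC trend removed its log2 fold change was 0.07. Among cell types known to hold Cd36, endothelial markers summed to 1216 to 1279 CPM in wild-type and 811 to 1263 CPM in knockout-labelled libraries (12 of 12 tested). Adipocyte markers summed to 77.9 to 108 CPM in wild-type and 71.5 to 83.4 CPM in knockout-labelled libraries (7 of 8 tested), and macrophage markers to 1987 to 3025 and 2569 to 2936 CPM (12 of 12 tested). By log2 fold change 4 adipocyte markers lay above 0 and 3 below, 9 macrophage markers above and 3 below, and 2 endothelial markers above and 10 below. Skeletal muscle markers (8 of 8 tested) summed to 786 to 2346 CPM in wild-type and 1246 to 3249 CPM in knockout-labelled libraries. Of these, 7 lay above 0 and 1 below. The part of these cell types in the Cd36 value was not tested. Myo7a stood at 205, 257 and 185 CPM in the wild type and at 224, 164 and 171 CPM in the knockout-labelled animals, with animals 2 and 3 below the lowest wild-type library (log2 fold change -0.21, SE 0.17, edgeR adjusted p = 0.629).

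**Figure D3:**
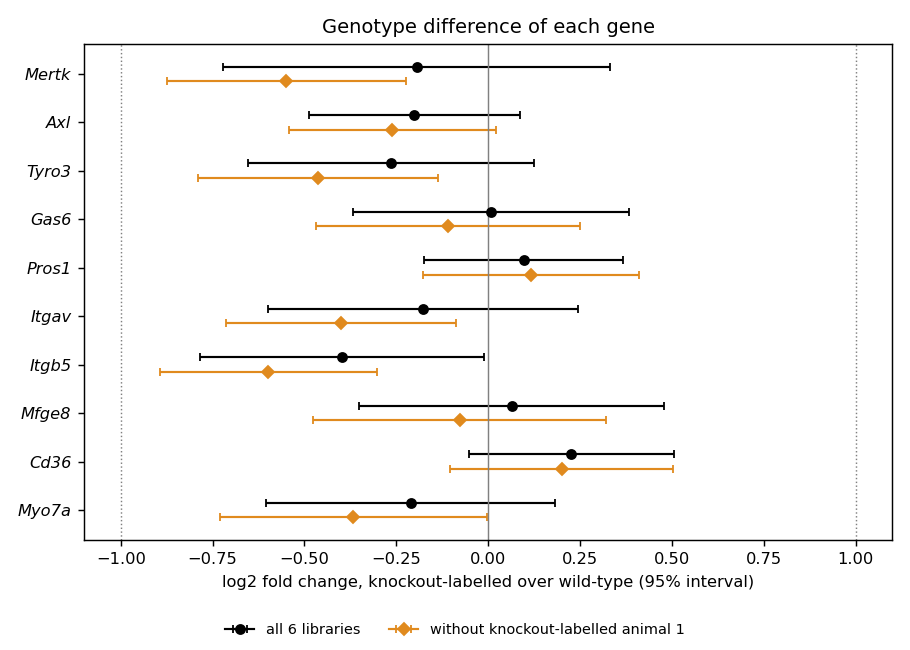
Log2 fold change of each member, knockout-labelled over wild type (horizontal axis), with its 95% interval, over all 6 libraries (black) and without knockout-labelled animal 1 (orange); dotted lines mark a 2-fold change. All intervals lie within 2-fold, and without that animal those of Mertk, Tyro3, Itgav, Itgb5 and Myo7a lie below 0.

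How far the members differed depended on the animals included. The members' median log2 fold change of -0.19 became -0.31 without knockout-labelled animal 1, -0.08 without animal 2 and -0.05 without animal 3, and it lay between -0.25 and -0.11 when a wild-type animal was left out. Itgav stood at -0.07 without knockout-labelled animal 2, and Myo7a at -0.07 without wild-type animal 2. Knockout-labelled animal 1 lay above all wild-type libraries for 3 members and below all of them for 1, whereas animal 2 lay below all of them for 7 members and animal 3 for 6. Without animal 1, Itgb5 was called as lower (log2 fold change -0.60, edgeR adjusted p = 0.0390), the 1 member called where 4.95% of all genes were called. Mertk then stood at -0.55 (adjusted p = 0.0643), Tyro3 at -0.46 (0.0991), Itgav at -0.40 (0.127) and Myo7a at -0.37 (0.213). At an unadjusted p under 0.05 stood 5 of 10 members, against 23.0% of all genes, and 6 of 10 did not overlap between the groups, against 42.1% of all genes. Axl stood at -0.26, Pros1 at 0.12 and Cd36 at 0.20. Erythroid markers (2 of 5 tested) summed to 1060 CPM in knockout-labelled animal 1, and to 55.7 and 77.1 CPM in animals 2 and 3. In the wild type they summed to 4.29 to 33.7 CPM. Chi-square per degree of freedom was 110 and 89.8 for its pairs with animals 2 and 3, and 28.9 between those. The part of these traits in the shifts was not tested. Animal 1 was the female of its group, as was wild-type animal 1, by Xist and Y-linked transcripts. With sex as a term 0 members were called, where 0.00633% of all genes were, and Itgb5 stood at -0.42 (edgeR adjusted p = 0.296).

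The RPE markers were also low on average in knockout-labelled animals 2 and 3. The mean log2 CPM of the 18 RPE markers was 8.76, 8.99 and 8.69 in wild-type animals 1 to 3 and 8.96, 8.28 and 8.52 in knockout-labelled animals 1 to 3, so that the same 2 libraries were the lowest. The markers did not all follow this mean: 13 of 18 had a log2 fold change below 0 and 5 above. Rpe65, the retinoid isomerase of the visual cycle, stood at 2201, 2685 and 2394 CPM in the wild type and at 2987, 1326 and 1423 CPM in the knockout-labelled animals. Trpm1, a cation channel gene also active in melanocytes, stood at 327, 308 and 169 CPM in the wild type and at 221, 253 and 392 CPM in the knockout-labelled animals, highest in animal 3. With the marker mean as a covariate the log2 fold change was 0.01 for Mertk, -0.0041 for Itgav, -0.02 for Myo7a, -0.12 for Tyro3, -0.15 for Axl and -0.26 for Itgb5. With it 0 members were called, where 0.298% of all genes were. These 2 libraries also had the highest cornea and conjunctiva markers and the lowest endothelial markers (930 and 811 CPM summed, against 1216 to 1279 CPM in the wild type). With the cornea marker mean as a covariate Mertk stood at 0.03, Itgav at -0.02, Myo7a at -0.02, Tyro3 at -0.01, Axl at -0.16 and Itgb5 at -0.25, with 0 members called against 0.241% of all genes. With 6 libraries in which these markers vary together, tissue composition and genotype cannot be told apart.

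**Figure D4:**
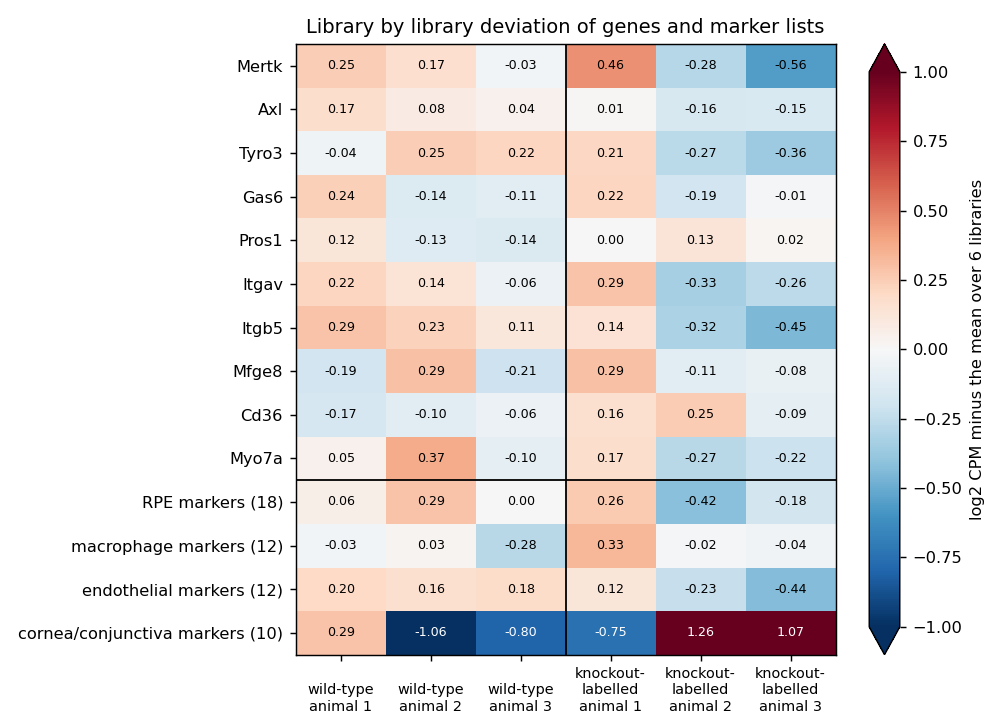
Log2 CPM of each member, and mean log2 CPM of 4 marker lists, as the deviation from the mean over the 6 libraries (colour and printed value; columns are animals). Knockout-labelled animals 2 and 3 are below 0 for Mertk, Axl, Tyro3, Gas6, Itgav, Itgb5, Mfge8 and Myo7a and for the RPE and endothelial markers, and far above 0 for the cornea and conjunctiva markers.

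The profile of Mertk was followed most closely among its fellow members by Itgav, with a root mean square difference of 0.14 on the log2 scale over the 6 libraries, and by Itgb5 (0.15). Among 14809 genes with a mean of at least 1 CPM the nearest were Cc2d1b, Tbkbp1 and Dzip1l (0.075, 0.078 and 0.092), and Itgav and Itgb5 ranked 57 and 89.

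Beyond the members, 67 genes of the same process were listed in 3 groups, and 0 of the 66 tested were called by edgeR's quasi-likelihood test. Of these 34 lay above and 32 below 0, with a median log2 fold change of 0.01. At an unadjusted p under 0.05 stood 16 of 66 (24.2%, against 14.2% of all genes), 9 higher and 7 lower in the knockout-labelled group. The lists were chosen with earlier results of these data known, so the excess over all genes is no test. The count was 8 with the cornea marker covariate (1518 of 15796 genes), 11 with the GC trend removed (1931) and 15 with the RPE marker covariate (1778). Without knockout-labelled animal 1 it was 21, where 3699 of 16064 genes did so. Of 26 other receptors, ligands and regulators 11 lay above and 15 below 0, with a median of -0.06. Of 20 genes of the cytoskeletal engulfment module 12 lay above and 8 below 0, with a median of 0.11. Of 20 genes of phagosome maturation and LC3-associated phagocytosis 11 lay above and 9 below 0, with a median of 0.01.

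The most abundant genes of each list give the levels. Anxa2, annexin A2, a membrane-binding protein with a part in early phagosome traffic, stood at 1179 ± 163 CPM in the wild type and 2057 ± 520 CPM in the knockout-labelled group (SD, n = 3 each), without overlap (log2 fold change 0.80, SE 0.21, edgeR adjusted p = 0.185). Lrp1, an endocytic receptor for many ligands, stood at 1883 ± 282 and 1339 ± 264 CPM (-0.49, adjusted p = 0.299). Cdc42, a small GTPase of actin assembly, stood at 361 ± 15.7 and 438 ± 49.97 CPM (0.28), and Myh9, non-muscle myosin heavy chain, at 408 ± 42.4 and 350 ± 29.8 CPM (-0.22). The lysosomal protease genes Ctsd, at 3799 ± 687 and 3953 ± 784 CPM (0.06), and Ctsb, at 1574 ± 234 and 1761 ± 181 CPM (0.16), overlapped between the groups (edgeR adjusted p = 0.925 and 0.698).

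**Figure D5:**
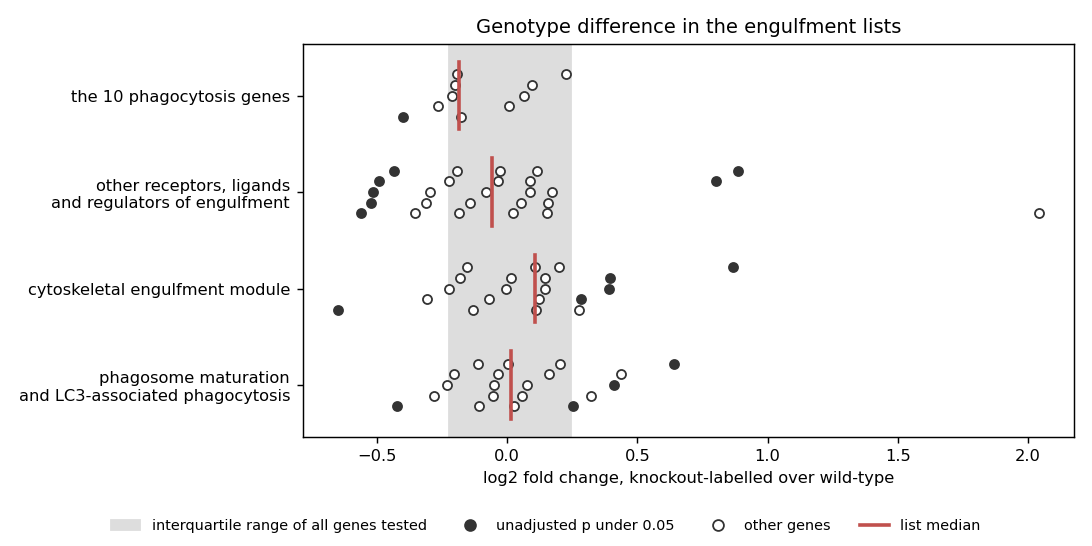
Log2 fold change of every tested gene, knockout-labelled over wild type (horizontal axis), for the 10 members and the 3 engulfment lists (rows); filled points have an unadjusted p under 0.05, red bars are list medians and the grey band is the interquartile range of all genes tested. The medians are -0.19, -0.06, 0.11 and 0.01 from top to bottom, and the point farthest to the right is Timd4, which stood at 0.19 and 0.82 CPM in the wild-type and knockout-labelled groups.

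A few listed genes outside the naming rule are added because of their values. In the lists 19 of 66 tested genes (28.8%) did not overlap between the groups, against 20.0% of all genes. Lgals3, which encodes galectin 3, reported as a further ligand of MERTK, had the smallest adjusted p of the lists: it stood at 101, 124 and 78.3 CPM in the wild type (animals 1 to 3) and at 159, 196 and 205 CPM in the knockout-labelled group (animals 1 to 3). All knockout-labelled libraries lay above all wild-type ones (log2 fold change 0.88, SE 0.18, edgeR adjusted p = 0.128). Other tests called it, with an adjusted p of 0.00471 in edgeR's exact test and of 0.000980 in DESeq2. Leaving out knockout-labelled animal 1 gave an edgeR adjusted p of 0.0262, and the authors' deposited table lists it at an FDR of 0.00518. Anxa2 missed the threshold in edgeR's exact test (adjusted p = 0.0581), while DESeq2 called it (adjusted p = 0.00475). It also passed without that animal (adjusted p = 0.0172), and is at an FDR of 0.0281 in the authors' deposited table. With the cornea marker mean as a covariate Lgals3 stood at 0.77 and Anxa2 at 0.43, neither called (adjusted p = 0.237 and 0.282). Rac1, a GTPase needed for uptake of the bound tips, averaged 323 ± 16.7 and 425 ± 22.3 CPM (SD, n = 3 per group), and the groups did not overlap (log2 fold change 0.39, edgeR adjusted p = 0.239). DESeq2 called it (adjusted p = 0.0485), but it did not pass in edgeR's exact test (adjusted p = 0.281) or without that animal (adjusted p = 0.108), and its FDR in the authors' deposited table is 0.445.

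The enzymes that make GAS6 and protein S functional lay lower in the knockout-labelled group, without passing. Ggcx, the vitamin K-dependent carboxylase that modifies both ligands, stood at 53.5, 54.0 and 44.7 CPM in the wild type (animals 1 to 3) and at 38.4, 34.5 and 39.8 CPM in the knockout-labelled group (animals 1 to 3). Vkorc1, the enzyme that recycles vitamin K for it, stood at 66.4, 74.2 and 57.1 CPM and at 43.9, 47.0 and 46.7 CPM in the same order. This pair too was picked for its values, from lists where 28.8% of tested genes did not overlap in either direction, against 20.0% of all genes. For Ggcx and for Vkorc1 every knockout-labelled library lay below every wild-type library, as for 9.96% of all genes. The log2 fold changes were -0.43 (SE 0.14, edgeR adjusted p = 0.232) and -0.52 (SE 0.13, edgeR adjusted p = 0.178). With the GC trend removed they were -0.42 and -0.44, and with the RPE marker covariate -0.37 and -0.50.

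Of the members 3 lie on chromosome 2, 3 on chromosome 7, 2 on chromosome 16 and 1 each on chromosomes 5 and 8, with 0 on chromosome 12, which carries Ahr. In GENCODE M21 (GRCm38) Mertk lies at chr2:128698956-128802894 on the plus strand and Itgb5 at chr16:33829665-33949338 on the plus strand. The exons of 8 members overlap no other annotated gene. Those of Itgav overlap Gm13684 on the opposite strand over 5.9% of their length and those of Gas6 overlap Tmem255b on the opposite strand over 1.3%, and reads there cannot be assigned without a stated strand setting.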

How the data were processed

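Whole-number gene counts were deposited by the authors, and the submitters' processing notes name TopHat, Bowtie, HTSeq, edgeR and the build mm10. The sources used here give no versions, annotation or strand setting. A table of the authors' edgeR results was deposited too, holding p-values, FDR values, log2 fold changes and mean log2 CPM. Its fold changes run from knockout to wild type, so their sign was turned here. The 5 rows of counting tallies were left out.

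The test was that of edgeR 4.0.16, run in R 4.3.3. Genes passed filterByExpr given the groups, at a minimum count of 10 and a minimum total of 15. Libraries were scaled by TMM, genotype was the single term of glmQLFit, and p-values from glmQLFTest were adjusted by Benjamini-Hochberg over 15796 genes. Libraries of 1 group differed beyond counting noise (chi-square per degree of freedom 28.9 to 110). The procedure was checked on simulated data drawn with less spread between animals than these data have, so the check does not cover their spread. CPM use TMM-adjusted library sizes, and the standard error (SE) is the absolute log2 fold change over the square root of F. Marker covariates and deviations use log2 CPM with a prior count of 2. Exon lengths and transcript GC content came from GENCODE M21, and promoter windows from RefSeq. GC trends were removed as each library's lowess fit (span 0.3). Alternatives used limma 3.58.1 and DESeq2 1.42.0 as well.

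Members and lists were chosen with earlier results of these data known. Named genes are all members, Ahr, and per engulfment list called genes or, with 0 called, the 2 most abundant. For Mertk the 3 genes nearest in profile are named too. Rpe65 and Trpm1 are not the 2 most abundant RPE markers and were named outside this rule, as were Lgals3, Rac1, Ggcx, Vkorc1 and Timd4. The within-library ratios were chosen after the data were seen.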

Additional observations from a re-analysis of the deposited data

How the results depend on the processing

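Each member's log2 fold change was recomputed under 19 alternatives. Of 190 values, 176 kept their sign and stayed uncalled, 13 turned sign, uncalled, and 1 was newly called, Itgb5 without knockout-labelled animal 1 (-0.60). Mertk turned to 0.028 with the cornea marker covariate, 0.012 with the RPE marker covariate and 0.00017 without knockout-labelled animal 3, and leaving out 1 library gave -0.55 to 0.00017. Gas6 turned to -0.0037 with upper-quartile factors, -0.012 with no filter beyond 1 count, -0.11 without knockout-labelled animal 1 and -0.061 and -0.071 without wild-type animals 2 and 3 (-0.11 to 0.14 over the 6 libraries left out). Pros1 turned to -0.019 with GC offsets, -0.015 with these and the replicate block. Mfge8 turned to -0.077 without knockout-labelled animal 1 and to -0.019 and -0.045 without wild-type animals 1 and 3 (-0.077 to 0.25). Axl, Tyro3, Itgav, Itgb5, Cd36 and Myo7a kept their sign in all 19, though some values lay close to 0. With the cornea marker covariate Tyro3 stood at -0.013, Itgav at -0.020 and Myo7a at -0.017. With the RPE marker covariate Itgav stood at -0.0041 and Myo7a at -0.022.

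Over all genes the 8 calls became 15 with upper-quartile factors, 22 with no filter, 16 with a filter of at least 1 CPM in 3 libraries, 13 with limma-voom, 458 with DESeq2, 352 with the edgeR exact test, 38 with the cornea and 47 with the RPE marker covariate, and 1 each with sex, the replicate block and the block with GC offsets. Leaving out 1 library gave 0 to 795 calls over all genes, 0 to 1 of 10 members called and 1 to 6 of 10 without overlap. Of 66 listed engulfment genes tested 0 to 7 were called. The highest of each came without knockout-labelled animal 1, where 4.95% of all genes were called. Over all genes 6758 of 16064 did not overlap without that animal, and 4264 to 4887 when another library was left out. Without knockout-labelled animals 2 or 3 or wild-type animal 3 edgeR called 0 genes, with 1516, 1719 and 1738 genes at an unadjusted p under 0.05, and without wild-type animals 1 or 2 it called 9 and 1. DESeq2 called 3 of 67 listed engulfment genes (Lgals3, Anxa2 and Rac1), of which Timd4 and Havcr1 got no adjusted p. It called 3.00% of the 15247 genes that got one. The exact test called 1 of 66 (Lgals3), where it called 2.23% of all genes. The cause of these shifts was not tested, beyond the fewer libraries compared for overlap. Animal numbers were not taken as pairs: deviations of same-numbered animals correlated at -0.10, -0.09 and -0.07, and with the animal number as a block 0 members were called, with Itgb5 at -0.42.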
